A study of Mus musculus with 27 samples.

Results

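In mouse embryonic stem cells a set of protein-coding transcripts took a far larger share of the polyadenylated reads in the chromatin fraction than in the cytoplasm, and in cortical neurons the same transcripts took a larger share in the cytoplasm than in chromatin. The set has 139 members among the 37332 genes of the count table, 21208 of them protein coding. A member had a log2 chromatin-to-cytoplasm ratio of at most -0.5 in mCtx and at least 2 in mESC, from mean CPM with 0.1 added, where CPM is the count over the library total. Its mean also had to reach 5 CPM in mCtx cytoplasm and in mESC chromatin. Gabbr1 and the families with symbols starting Kcn, Slc, Col, Abc and Syt were left out, which removed 9 of 148 genes. These ratios chose the members and are given as a description, with no test.

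The libraries come from the E14 embryonic stem cell line kept with LIF (mESC), 1 neural progenitor line that received 10.0 ng/ml of EGF and of FGF (mNPC), and primary cortical neurons 5 days in culture (mCtx). No genotype separates the groups, and the neurons' strain and age were not found in the labels. These culture conditions go with the cell type, so their effects cannot be told apart from it. Each cell type gave 3 biological replicates of a chromatin, a soluble nucleoplasm and a cytoplasm fraction, which makes 27 libraries with 10622897 to 24537526 counts each. Values are shares of each fraction's own polyadenylated RNA, so they give no amount per cell, and fewer cells of a type cannot be told apart from less RNA per cell. Pou5f1, the pluripotency factor, had 866 to 1259 CPM in mESC cytoplasm and was 0 in mNPC and mCtx cytoplasm. Nes and Pax6, progenitor markers, had 233 to 386 and 74.8 to 77.7 CPM in mNPC cytoplasm, and Neurod6, a marker of excitatory cortical neurons, had 379 to 460.0 CPM in mCtx cytoplasm. The mNPC libraries also held 1452 to 3855 CPM summed over 6 astrocyte genes and 115 to 1656 CPM over 6 oligodendrocyte lineage genes, of which 1 was at 0 in all 9 of them. They held 426 to 1510 CPM over 10 cortical neuron genes and 184 to 565 CPM over 10 pluripotency genes, 4 of the latter at 0 in all 9 libraries. The mCtx libraries held 459 to 1616 CPM over 9 progenitor genes, 255 to 418 CPM over the astrocyte genes and 168 to 475 CPM over 8 inhibitory neuron genes, none of them at 0 throughout. The mESC libraries held 152 to 480.0 CPM over the same 10 cortical neuron genes and 23.4 to 603 CPM over 5 endothelial genes. The part of other cells in the results was not tested. The mESC libraries numbered 1 differed from the others of their groups, and without those 3 the rule gave 154 genes, 126 of them members.

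A polyadenylated transcript is made and spliced on chromatin, released into the nucleoplasm and exported through the nuclear pore. Transcripts whose introns are not removed tend to stay in the nucleus. Transcripts for secreted and membrane proteins are translated on ribosomes bound to the endoplasmic reticulum (ER), where a hydrophobic stretch of the new protein is inserted into the membrane.

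Most members encode such proteins. A run of 19 residues with a mean Kyte-Doolittle hydropathy of at least 1.6, a common mark of a membrane-spanning or signal segment, was found in 102 of the 134 members with a nuclear gene (76.1%), against 2574 of 8974 other protein-coding genes at the same level minimum (28.7%). At least 2 such runs were found in 43.3% of members and 12.2% of the others, and with a mean of at least 2.0 the shares were 57.5% and 15.4%. This feature was chosen after the members were seen and is a description. The stretches are shown for 4 members, each from another group of function, with the 57 bases of the most hydrophobic run in capitals and 15 coding bases on each side, read 5′ to 3′ from GENCODE M21 transcripts (GRCm38, the build of mm10). Mmgt1, a subunit of the ER membrane complex that inserts membrane proteins, and Serinc1, which helps to put serine into membrane lipids, stand for the ER and lipid groups. Cd81, a tetraspanin of the cell surface, comes next, and Serinc1 and Cd81 were chosen after their values were seen. Syp encodes synaptophysin of the synaptic vesicle and stands for the neuronal group.
Mmgt1: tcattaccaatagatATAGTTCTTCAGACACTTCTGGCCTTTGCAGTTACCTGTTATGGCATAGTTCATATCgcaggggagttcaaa
Serinc1: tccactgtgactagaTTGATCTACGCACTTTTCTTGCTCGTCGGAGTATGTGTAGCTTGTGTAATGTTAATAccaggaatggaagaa
Cd81: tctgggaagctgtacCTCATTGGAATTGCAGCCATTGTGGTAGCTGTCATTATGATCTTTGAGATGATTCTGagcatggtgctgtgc
Syp: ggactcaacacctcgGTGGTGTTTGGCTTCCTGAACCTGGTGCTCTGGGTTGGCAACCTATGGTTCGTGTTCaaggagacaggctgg

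The run shown for Serinc1 covers residues 40 to 58 of 453. The mean hydropathy of the runs was 2.97 in Serinc1, 2.91 in Cd81, 1.99 in Syp and 1.93 in Mmgt1. Members of the nuclear genome had a median 3′ UTR of 2103 bases, against 947 in the other genes, and a median transcript GC content of 45.9%, against 50.6%. They had a median of 7 exons and a span of 35886 bases, against 10 exons and 25262 bases. Of all members, 13 lie on the X chromosome (9.35%), against 3.12% of the others.

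**Figure D1:**
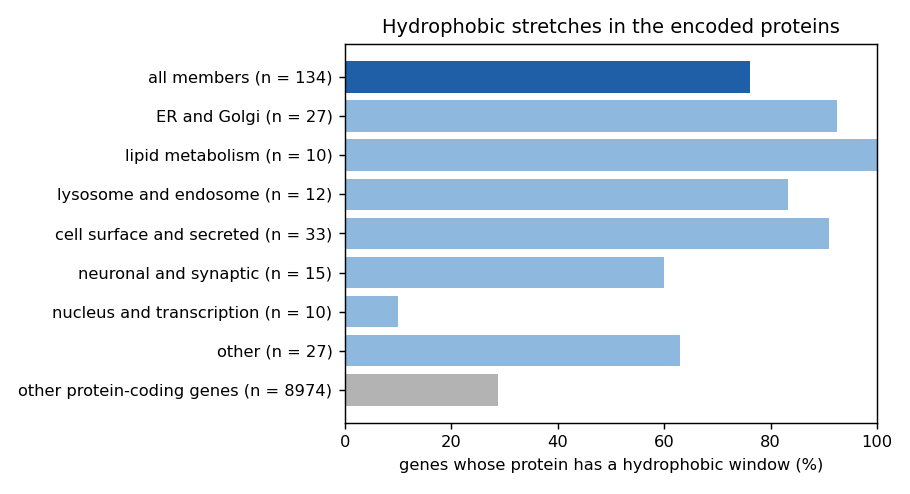
Share of genes whose protein has at least 1 hydrophobic run of 19 residues (x axis, percent), for all members, for 7 of the role groups and for the other protein-coding genes at the same level minimum. The bar of all members ends at 76.1% and that of the other genes at 28.7%, and the nucleus and transcription group has 1 gene of 10.

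The label of chromatin retention holds for the ratio to cytoplasm, which the rule set, and it does not separate chromatin from nucleoplasm. The rule used the mESC chromatin libraries, so the counts of nucleoplasm against chromatin in mESC are a description. In mESC the nucleoplasm mean was above the chromatin mean in 76 of 139 members (54.7%), against 40.4% of the other genes. Nucleoplasm exceeded chromatin at least 2-fold in 21 members (15.1%), against 12.7% of the others, and chromatin exceeded nucleoplasm at least 2-fold in 26 members (18.7%), against 19.7%. Against the mESC cytoplasm libraries, which the rule used, all 3 nucleoplasm libraries lay higher in 128 members (92.1%), against 29.3% of the others. Their median log2 ratio in mESC was 2.40 for chromatin over cytoplasm and 2.72 for nucleoplasm over cytoplasm, against 0.35 and -0.13 in the other genes.

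The split between the fractions differed among the groups of function, which were assigned from general knowledge after the members were seen. The mESC chromatin values were used by the rule, so these counts too are a description. In mESC, nucleoplasm exceeded chromatin in 20 of 27 members of the ER and Golgi, in 9 of 10 of lipid metabolism, in 8 of 12 of lysosomes and endosomes and in 22 of 33 of the cell surface and secretion. It did so in 2 of 15 neuronal and synaptic members and in 0 of 10 members of the nucleus and transcription. Among members with a hydrophobic run it did so in 66 of 102 (64.7%), and among those without one in 5 of 32 (15.6%), while the shares in the other genes were 49.1% and 37.0%.

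**Figure D2:**
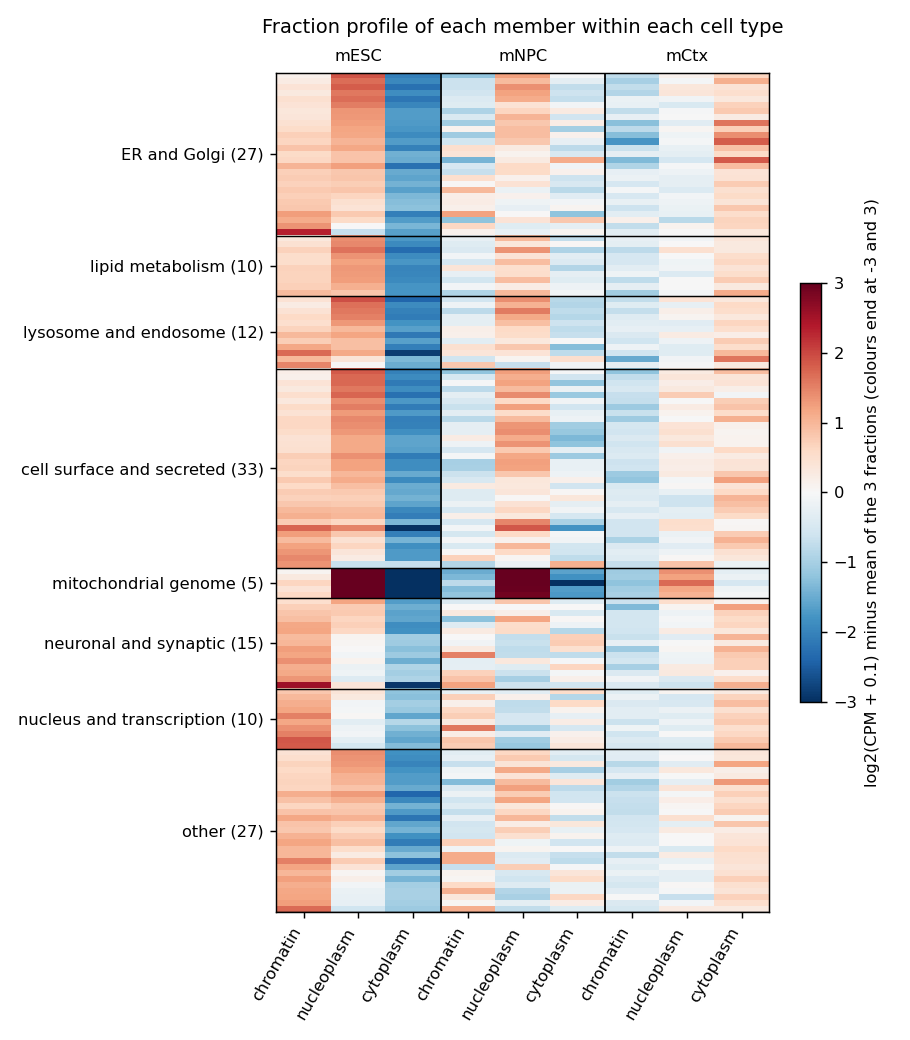
Fraction profile of the 139 members (rows, grouped by function, with the number in each group) in the 3 fractions of mESC, mNPC and mCtx (columns). Colour is log2(CPM + 0.1) of the mean of 3 libraries minus the member's mean over the 3 fractions of that cell type. The mESC cytoplasm column is low throughout, which the rule required, and in mESC and mNPC the ER, lipid, lysosome and cell surface members are mostly highest in nucleoplasm.

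In libraries that the rule itself used, cytoplasm CPM was higher in mCtx than in mESC for 135 of 139 members (97.1%), against 50.9% of the other genes, and chromatin CPM was higher for 60 members (43.2%), against 45.5%. Cytoplasm CPM was higher in mESC for the other 4, Eda2r, Il17rd, Jam2 and Stc2, which were named after their values were seen. The median log2 ratio of mCtx over mESC was 3.46 in cytoplasm, 0.00 in nucleoplasm and -0.36 in chromatin. In mCtx, cytoplasm was the highest fraction for 116 members (83.5%), against 39.8% of the other genes, and nucleoplasm for the other 23 (16.5%), against 11.2%. The rule kept mCtx chromatin below cytoplasm, so chromatin could not be the highest fraction of a member. The median log2 ratio of chromatin over cytoplasm was 2.40, 0.10 and -1.0 in mESC, mNPC and mCtx, with ranges of 2.00 to 5.46, -2.51 to 2.42 and -3.58 to -0.50. The mNPC ratio, which the rule did not use, had a median of 0.20 in the other genes, close to that of the members. It lay between the other two ratios in 132 members, below the mCtx ratio in 6 and above the mESC ratio in 1, Napb, and since the rule sets the gap between those ratios, these counts are a description. They include 6 members whose mNPC chromatin and cytoplasm means were both under 1 CPM, where the added 0.1 weighs on the ratio. For Mal2, which had no mNPC counts, the added 0.1 alone set the ratio and placed it between the others.

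**Figure D3:**
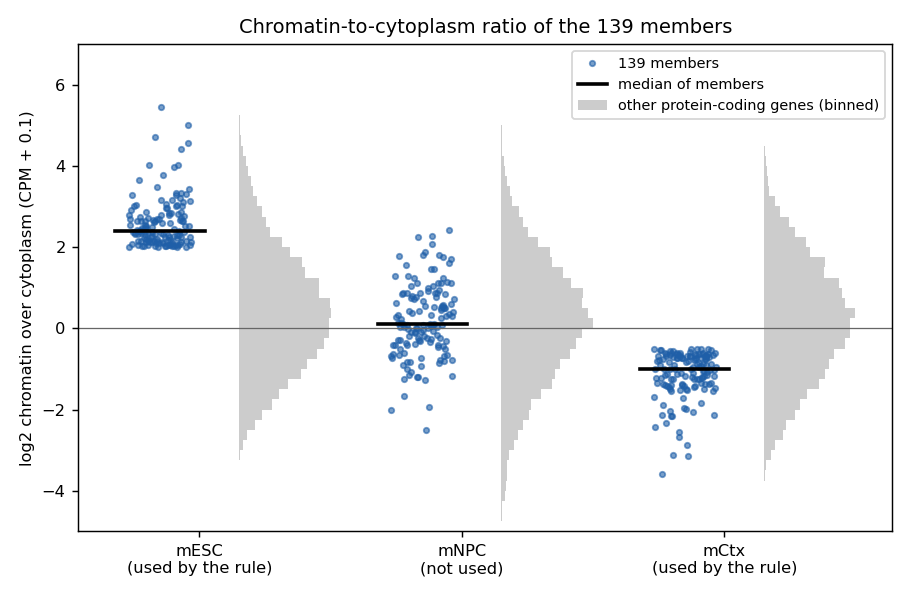
Log2 chromatin over cytoplasm (y axis, means of 3 libraries in CPM + 0.1) for the 139 members (blue points, black line at the median) beside the binned distribution of other protein-coding genes at the same level minimum (grey) in mESC, mNPC and mCtx. The mESC and mCtx points are cut off at 2 and -0.5 by the rule, and the mNPC points spread from -2.51 to 2.42 around a median of 0.10.

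Among members of the ER and Golgi, Mmgt1 (mm10 chromosome X, 56585512 to 56598069, - strand) had 43.3, 50.5 and 38 CPM in mESC chromatin, 50.4, 52.4 and 52.8 CPM in mESC nucleoplasm and 11.7, 9.26 and 9.23 CPM in mESC cytoplasm. It had 24.8, 24.9 and 26.6 CPM in mNPC chromatin, 73.8, 81.7 and 83.2 CPM in mNPC nucleoplasm and 128, 149 and 159 CPM in mNPC cytoplasm. It had 13.8, 11.7 and 11.4 CPM in mCtx chromatin, 24.3, 22.2 and 18.6 CPM in mCtx nucleoplasm and 130.0, 101 and 99.2 CPM in mCtx cytoplasm. Each mESC cytoplasm library was below each of the other mESC libraries, and in mNPC and mCtx cytoplasm was above both other fractions with no overlap. Mmgt1 had the lowest mNPC value of all members for chromatin over cytoplasm (log2 fold change -2.83 ± 0.13 (SE), adjusted p = 5.42e-16).

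Alg10b, which adds the last glucose to the lipid-linked sugar used in N-glycosylation, had the lowest mCtx ratio, -3.58, against 2.31 in mESC. Its level was 7.93, 7.18 and 8.33 CPM in mCtx chromatin, 29.5, 25.8 and 22.1 CPM in nucleoplasm and 107, 73.7 and 103 CPM in cytoplasm. The mESC libraries had 61.2, 59.8 and 50.1 CPM in chromatin, 74.7, 74 and 72.1 CPM in nucleoplasm and 13.3, 9.79 and 11.2 CPM in cytoplasm. Chromatin was thus lower in mCtx than in mESC and cytoplasm higher, with no overlap in either fraction. The rule used these libraries, so here and in other named members a lack of overlap in them is a description. Its share over all genes was not counted. Impad1, a Golgi phosphatase, had 300.0, 180.0 and 214 CPM in mCtx cytoplasm and 23.1, 14.3 and 13.3 CPM in mESC cytoplasm. Manea, a Golgi mannosidase, had 27.5, 19.1 and 20.7 CPM in mCtx and 2.3, 2.99 and 2.02 CPM in mESC cytoplasm. Tmed7, a cargo receptor between ER and Golgi, had 175, 136 and 124 CPM in mCtx and 33.7, 23 and 22.1 CPM in mESC cytoplasm. In each of the 3 genes the groups did not overlap. Rtn3, a reticulon that shapes ER tubules, was the nuclear gene with the highest mCtx cytoplasm CPM of the members, with no correction for length, at 1715, 1573 and 1501, against 39, 26.9 and 28.1 CPM in mESC cytoplasm. Its chromatin level was also higher in mCtx, at 584, 561 and 535 CPM, than in mESC, at 130.0, 143 and 109 CPM.

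Among lysosomal members, Ids, the iduronate sulfatase lost in human Hunter syndrome (mm10 chromosome X, 70343069 to 70365084, - strand), had 39.3, 36 and 30.2 CPM in mESC chromatin, 22.3, 22.1 and 24.7 CPM in nucleoplasm and 9.34, 5.93 and 5.29 CPM in cytoplasm. In mNPC it had 45.1, 37.9 and 42.2 CPM, 64.5, 64.2 and 71.8 CPM and 89.5, 89.2 and 86 CPM in those fractions. In mCtx it had 92.6, 78.1 and 77.2 CPM, 235, 218 and 213 CPM and 801, 670.0 and 708 CPM. The order of the fractions was thus opposite in mCtx and mESC, and the mCtx ratio of -3.13 was among the lowest of the set. Lmbrd2 encodes a multipass membrane protein, and its place in this group rests on general knowledge alone and was not checked. It had 25.9, 17.5 and 29.4 CPM in mCtx cytoplasm and 1.85, 1.96 and 2.6 CPM in mESC cytoplasm, with chromatin at 9.69, 6.74 and 8.23 CPM in mCtx and 57.4, 46.3 and 53.9 CPM in mESC. Clcn3, a chloride-proton exchanger of endosomes and synaptic vesicles, had 157, 112 and 136 CPM in mCtx cytoplasm and 28.2, 27.8 and 35.1 CPM in mESC cytoplasm, and its mCtx ratio was -0.63. Pon2, a lactonase of the lipid group, was lower in every fraction of mCtx and mESC than of mNPC, with 93, 98 and 114 CPM in mNPC cytoplasm, against 12.6, 13.6 and 10.4 CPM in mCtx and 1.78, 4.02 and 3.51 CPM in mESC cytoplasm. Serinc1 had 15, 10.9 and 10.9 CPM in mESC cytoplasm, 153, 127 and 167 CPM in mNPC cytoplasm and 706, 574 and 623 CPM in mCtx cytoplasm, beside 236, 182 and 162 CPM, 759, 737 and 688 CPM and 812, 680.0 and 658 CPM in the nucleoplasm of the same cells.

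Among cell surface members, Robo1, the receptor for Slit guidance cues (mm10 chromosome 16, 72663149 to 73046095, + strand), had 190.0, 154 and 223 CPM in mCtx cytoplasm and 10.0, 11.1 and 10.6 CPM in mESC cytoplasm. Its chromatin level was 119, 112 and 119 CPM in mCtx and 54.5, 44.1 and 32.9 CPM in mESC, and in both cell types nucleoplasm was the highest fraction. Efnb3, an ephrin ligand, had 268, 276 and 295 CPM in mCtx cytoplasm and 2.82, 2.6 and 3.41 CPM in mESC cytoplasm, with chromatin at 166, 181 and 163 CPM in mCtx and 23.4, 30.3 and 27.1 CPM in mESC. Xk, a membrane protein of the XK family, had 25.9, 18.3 and 22.3 CPM in mCtx and 2.3, 1.37 and 1.73 CPM in mESC cytoplasm. Parm1, a mucin-like protein, had 13, 9.69 and 10.5 CPM in mCtx and 1.85, 1.13 and 0.769 CPM in mESC cytoplasm. Mfap3, a membrane glycoprotein outside the groups, had 96.4, 88.9 and 92.5 CPM in mCtx cytoplasm and 11, 9.35 and 9.9 CPM in mESC cytoplasm, while its chromatin level was 36.3, 36 and 35.7 CPM in mCtx and 110.0, 113 and 115 CPM in mESC. In Xk, Parm1 and Mfap3 chromatin was lower in mCtx than in mESC, with no overlap.

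Among neuronal members, Syp (mm10 chromosome X, 7638471 to 7653256, + strand) had 264, 275 and 235 CPM in mCtx chromatin, 623, 573 and 546 CPM in nucleoplasm and 431, 426 and 446 CPM in cytoplasm. Its mESC levels were 6.89, 6.61 and 4.64 CPM, 10.6, 11.2 and 7.27 CPM and 1.26, 1.47 and 1.06 CPM in those fractions. It was highest in nucleoplasm in both cell types. Napb, which helps to disassemble used SNARE complexes (mm10 chromosome 2, 148693985 to 148732467, - strand), had 74.2, 63.5 and 65.4 CPM in mCtx chromatin, 103, 95.7 and 90.8 CPM in nucleoplasm and 198, 166 and 185 CPM in cytoplasm, against 19.4, 19.4 and 23.3 CPM, 9.21, 8.26 and 8.31 CPM and 5.26, 4.16 and 3.27 CPM in those fractions of mESC. Cytoplasm was its highest fraction in mCtx and chromatin in mESC, with no overlap. Chrnb2, a nicotinic receptor subunit, had 120.0, 126 and 131 CPM in mCtx and 1.11, 0.343 and 0.24 CPM in mESC cytoplasm. Scn3b, a sodium channel subunit, had 344, 324 and 311 CPM in mCtx and 1.63, 0.735 and 0.721 CPM in mESC cytoplasm. In these 4 genes chromatin was also higher in mCtx than in mESC with no overlap. Mal2, a lipid raft protein, had 37.6, 29.8 and 31.7 CPM in mCtx cytoplasm and 2.37, 0.882 and 0.384 CPM in mESC cytoplasm. Its 9 mNPC libraries held 0 counts, so it has no fold between mNPC fractions, though it is counted among the members tested there. In nucleoplasm it was called higher in mCtx than in mNPC (log2 fold change 11.27) and lower in mNPC than in mESC (-9.63). The size of both folds rests on the absence of mNPC counts.

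A neuropeptide gene and a transcription factor gene were special cases. Cort, the neuropeptide cortistatin, had the highest mESC ratio, 5.46, from 8.38, 14.9 and 14.3 CPM in chromatin and 0.222, 0.147 and 0.192 CPM in cytoplasm. It begins 357 bases downstream of Cenps on the same strand, and reads that run on from Cenps cannot be told apart from its own. Zbtb18, a zinc finger repressor needed for cortical development and listed among neuronal transcription factors under its older symbol Zfp238, had 846, 762 and 779 CPM in mCtx cytoplasm and 25.4, 14.8 and 11.3 CPM in mESC cytoplasm. In mESC its chromatin level was 87.7, 60.8 and 61 CPM and its nucleoplasm level 34.9, 20.1 and 19.1 CPM. Cytoplasm was its highest fraction in mCtx, chromatin in mESC.

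**Figure D4:**
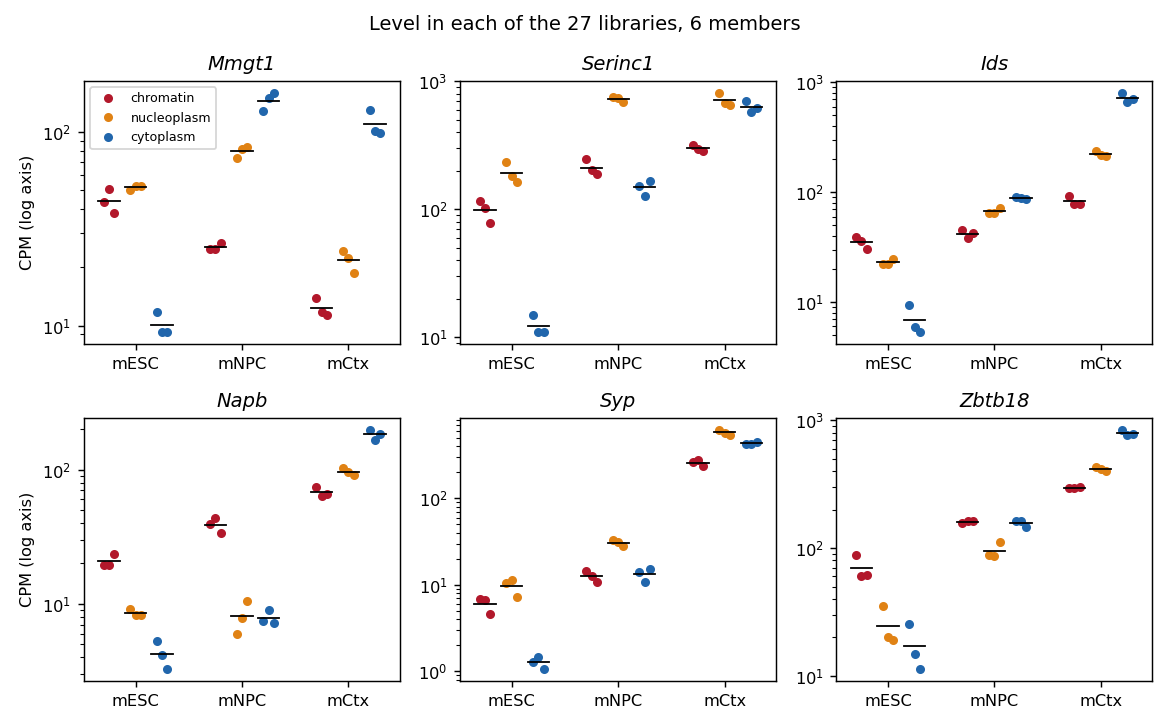
CPM in each of the 27 libraries (log axis, points, with a line at the mean of 3) for 6 members in the chromatin, nucleoplasm and cytoplasm of mESC, mNPC and mCtx. Mmgt1, Serinc1 and Syp stand highest in nucleoplasm in mESC, Ids, Napb and Zbtb18 in chromatin, and all 6 stand lowest in cytoplasm there.

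The 5 members of the mitochondrial genome, of 13 mitochondrial mRNAs in the table, had the highest nucleoplasm ratios, and nuclear copies of mitochondrial sequence can share their reads. mt-Co1, a cytochrome oxidase subunit, had 4841, 3374 and 2915 CPM in mESC chromatin, 24525, 23510.0 and 20950.0 CPM in nucleoplasm and 239, 154 and 124 CPM in cytoplasm, and 5212, 5479 and 4427 CPM in mCtx chromatin, 20670.0, 19822 and 20630.0 CPM in nucleoplasm and 9509, 9618 and 9342 CPM in cytoplasm. Nucleoplasm was the highest fraction in both. The complex I genes mt-Nd1, mt-Nd2 and mt-Nd6 and the cytochrome b gene mt-Cytb had mCtx ratios of -0.91, -0.76, -0.70 and -0.87, and mESC ratios of 4.01, 3.65, 4.70 and 4.03. The mitochondrial share of all counts was 3.84% to 4.43% in mESC nucleoplasm, 8.81% to 11.7% in mNPC nucleoplasm and 6.41% to 6.70% in mCtx nucleoplasm. It was 0.0321% to 0.0435%, 0.317% to 0.504% and 2.44% to 2.64% in the cytoplasm of the same cell types. Transcripts of an organelle that is not nuclear thus moved with the nucleoplasm fraction, and the part of organelle content in the other members' nucleoplasm values was not tested.

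The mNPC fractions, which the rule did not use, were tested to ask where the members stand between the other cell types. Libraries were scaled by TMM, and a gene was called at an adjusted p under 0.05 with a fitted change of at least 2-fold. In mNPC chromatin over cytoplasm, 14 of 139 members were higher (10.1%), where 27.5% of the 18226 genes tested were, and 24 were lower (17.3%), where 21.3% of all genes were. Among the 9118 protein-coding genes at the level minimum, members included, 21.8% were higher and 27.9% lower. The median log2 fold change was -0.21 for members and 0.12 for all genes. Scaled by library totals alone, 26 members were higher, where 33.6% of all genes were, and 12 were lower, where 16.9% of all genes were. The medians were then 0.10 for members and 0.43 for all genes, so the scaling moved both by the same amount.

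The highest called members were Fut9, a fucosyltransferase that makes the Lewis X sugar, with 180.0, 236 and 235 CPM in mNPC chromatin and 40.4, 48.9 and 32.4 CPM in cytoplasm (log2 fold change 2.10 ± 0.22 (SE), adjusted p = 3.26e-09). Napb had 39.2, 43.5 and 33.8 CPM in chromatin and 7.45, 9 and 7.21 CPM in cytoplasm (log2 fold change 1.98 ± 0.15 (SE), adjusted p = 1.16e-11). Parp6, an ADP-ribosyltransferase, had 135, 127 and 123 CPM in chromatin and 29.5, 32.6 and 28.9 CPM in cytoplasm, and its log2 value was 1.77. In these 3 genes each chromatin library was above each cytoplasm library. Cort and mt-Nd6 each had 2.00 on the log2 scale, Cort at 1.1, 0.637 and 0.414 CPM in chromatin and 0.254, 0 and 0.146 CPM in cytoplasm. On the other side, Reep3, which keeps ER membranes off mitotic chromosomes, had 108, 103 and 94.1 CPM in mNPC chromatin and 408, 399 and 429 CPM in cytoplasm (log2 fold change -2.33 ± 0.15 (SE), adjusted p = 3.86e-13). Tmed7 had 48.9, 47.2 and 45.8 CPM in chromatin and 110.0, 111 and 124 CPM in cytoplasm, with -1.60 (adjusted p = 1.69e-11). Olfm2, an olfactomedin of neurons, had -1.57 (adjusted p = 2.11e-07). Il31ra, a cytokine receptor subunit, had -2.31 (adjusted p = 0.00223), but 1 of its cytoplasm libraries held 42.9 CPM beside 9 and 9.76 in the others, its call was lost without 1 library, and in TPM its log2 value was 0.30, in the other direction.

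The nucleoplasm gave the members' clearest departure from all genes tested in mNPC, and other genes with a hydrophobic run leaned the same way. From CPM by library totals, the median log2 ratio of mNPC nucleoplasm over cytoplasm was 0.82 in members with such a run and -0.50 in those without. In the other genes at the level minimum it was 0.21 and -0.75. In mNPC nucleoplasm over cytoplasm, 73 members were higher (52.5%), where 16.4% of all genes were, and 6 were lower, where 8.56% of all genes were. Among protein-coding genes at the level minimum, 14% were higher and 11.8% lower. The median log2 fold change was 1.06 for members and -0.04 for all genes tested. In mNPC chromatin over nucleoplasm, 85 members were lower (61.2%), where 21.7% of all genes were, and 8 were higher, where 22.7% of all genes were, with medians of -1.43 and 0.05. Among protein-coding genes at the level minimum, 24.9% were lower and 20.7% higher. Without 1 mNPC nucleoplasm library, whichever was removed, 2 or 3 members were called lower than in cytoplasm in place of 6. Without the library numbered 1 or 3, 4 or 5 members were called higher in chromatin than in nucleoplasm in place of 8.

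By group, 28 of 33 cell surface members, 16 of 27 of the ER and Golgi, 8 of 10 of lipid metabolism and 8 of 12 of lysosomes and endosomes were lower in mNPC chromatin than in nucleoplasm, and none was higher. In the nucleus and transcription group 3 of 10 were higher and 0 were lower, and in the neuronal group 3 of 15 were higher and 4 lower. Robo1 had 149, 140.0 and 147 CPM in mNPC nucleoplasm and 33.3, 18.2 and 22.4 CPM in cytoplasm (log2 fold change 2.83 ± 0.19 (SE), adjusted p = 2.05e-12). Serinc1 had 759, 737 and 688 CPM in mNPC nucleoplasm and 153, 127 and 167 CPM in cytoplasm (log2 fold change 2.57 ± 0.15 (SE), adjusted p = 1.55e-13). Syp had 33.1, 30.9 and 28 CPM in nucleoplasm and 14, 10.7 and 15.2 CPM in cytoplasm, with 1.49 (adjusted p = 1.17e-08). The 5 mitochondrial members had log2 fold changes from 4.89 to 7.20, the largest of the set.

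**Figure D5:**
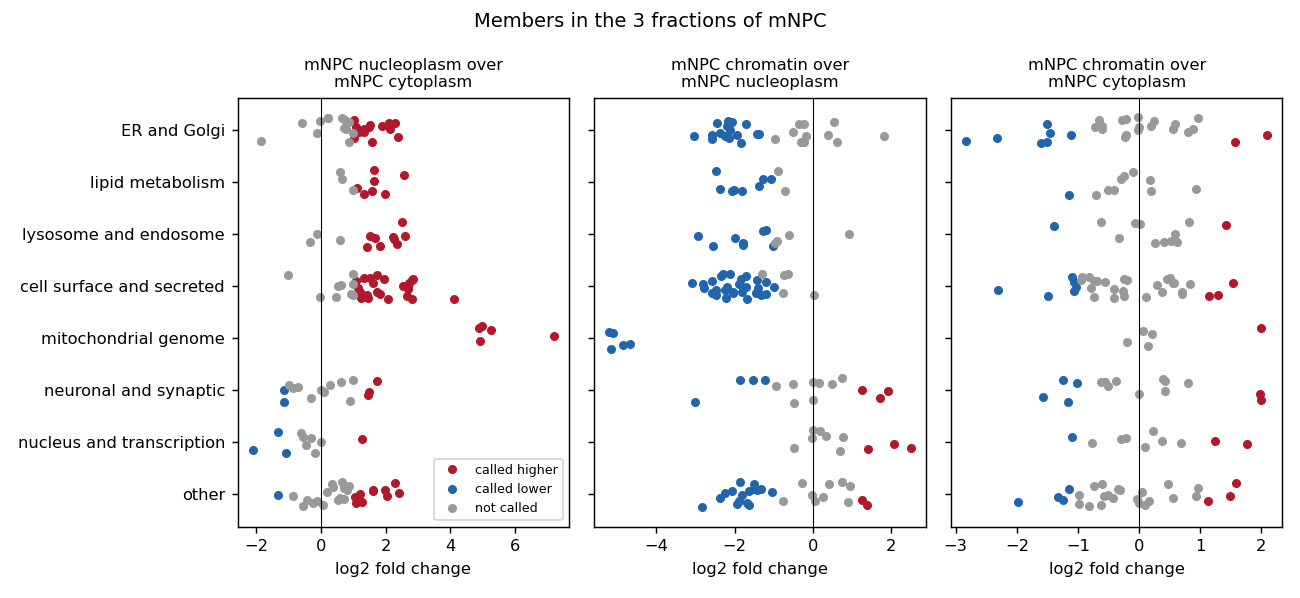
Log2 fold change of each member (x axis, TMM-scaled quasi-likelihood fit) in mNPC nucleoplasm over cytoplasm, chromatin over nucleoplasm and chromatin over cytoplasm, by group of function (y axis). Red points were called higher, blue points lower and grey points not called. Most ER, lipid, lysosome and cell surface members lie right of 0 in the first panel and left of 0 in the second, and nucleus and transcription members do not.

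Nucleoplasm levels were compared between the cell types. The rule used no nucleoplasm library, but it set minimum levels in other fractions of mCtx and mESC. The members' nucleoplasm levels in these cells are therefore not independent of the rule. In mCtx over mESC nucleoplasm, 59 members were higher (42.4%), where 28.9% of all genes were, and 33 were lower (23.7%), where 34.1% of all genes were. Among protein-coding genes at the level minimum, 26.4% were higher and 22.7% lower, so the members' lower share was near theirs. The neuronal group had 14 of 15 higher with a median of 3.96, and the ER and Golgi group had 4 higher and 10 lower of 27 with a median of -0.53. Syp was highest, with 623, 573 and 546 CPM in mCtx nucleoplasm and 10.6, 11.2 and 7.27 CPM in mESC nucleoplasm (log2 fold change 6.20 ± 0.19 (SE), adjusted p = 1.84e-20). Hs3st4, a heparan sulfate sulfotransferase, had 42.1, 42.7 and 40.4 CPM in mCtx and 1.27, 0.887 and 0.601 CPM in mESC (log2 fold change 5.80 ± 0.32 (SE), adjusted p = 2.03e-14). Fam78b had 5.62 (adjusted p = 7.91e-12) and Chrnb2 5.38 (adjusted p = 6.31e-14). Each of these 4 genes had every mCtx library above every mESC library.

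The lowest was Eda2r, a receptor for ectodysplasin A2, with 2.92, 4.06 and 1.97 CPM in mCtx nucleoplasm and 108, 72.8 and 61.2 CPM in mESC nucleoplasm (log2 fold change -4.49 ± 0.32 (SE), adjusted p = 7.87e-13). Il17rd, an inhibitor of FGF receptor signalling, had 9.4, 8.63 and 6.69 CPM in mCtx and 173, 181 and 134 CPM in mESC (log2 fold change -4.02 ± 0.16 (SE), adjusted p = 6.49e-18). Jam2, a junctional adhesion molecule, had -3.74 (adjusted p = 1.57e-10). Il17rd and Jam2 had higher means in mESC than in mCtx cytoplasm too, 8.77 ± 0.356 CPM in mCtx and 14.5 ± 0.718 CPM in mESC for Il17rd, and 54.6 ± 9.03 CPM in mCtx and 59.8 ± 40.5 CPM in mESC for Jam2 (SD, n = 3 each). Their mCtx chromatin means were 5.53 ± 0.496 and 24.2 ± 1.51 CPM.

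In mNPC over mESC nucleoplasm 73 members were higher, where 24.5% of all genes were, and 14 were lower, where 32.8% of all genes were. Protein-coding genes at the level minimum had 21.4% higher and 22.9% lower. In mCtx over mNPC nucleoplasm 34 members were higher, where 24.6% of all genes were, and 55 were lower, where 22.1% of all genes were. Protein-coding genes at the level minimum had 22.3% higher and 17.4% lower. These contrasts share libraries with each other and with the one above. In the last one 8 of 12 lysosomal members were lower with a median of -2.33, and 12 of 15 neuronal members were higher with a median of 3.25. Ids had 1.89 in mNPC over mESC and 1.66 in mCtx over mNPC nucleoplasm, and Manea had 2.29 and -3.29, all 4 called.

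Lists of neuronal genes taken from general knowledge were read against the 139 members among the 9118 protein-coding genes at the level minimum. Of the listed genes at that minimum, 3 of 36 vesicle release genes, 2 of 28 receptor and postsynaptic genes, 2 of 37 guidance and adhesion genes and 2 of 21 calcium, sodium and chloride channel genes were members. None of 40 cytoskeletal and motor genes, 17 RNA-binding protein genes or 10 transcription factor genes was one, and Zbtb18 is not counted there since its older symbol was listed. In mNPC chromatin over cytoplasm, where 27.5% of all genes were higher and 21.3% lower, 20 of 53 vesicle release genes were higher and 7 lower, 22 of 67 receptor genes higher and 3 lower, 38 of 65 guidance genes higher and 4 lower, and 21 of 36 channel genes higher and 1 lower. Cytoskeletal genes had 12 of 50 higher and 14 lower, RNA-binding protein genes 8 of 23 higher and 2 lower, and transcription factor genes 3 of 32 higher and 3 lower. In mNPC nucleoplasm over cytoplasm, where 16.4% of all genes were higher and 8.56% lower, 60 guidance genes were higher and 0 lower (median 2.92), 35 receptor genes higher and 2 lower (1.51) and 20 channel genes higher and 0 lower (1.56). Vesicle release genes had 6 higher and 3 lower (0.08), cytoskeletal genes 7 and 1 (-0.17), RNA-binding protein genes 0 and 0 (-0.41) and transcription factor genes 0 and 4 (-0.52). The lists thus differed among themselves in both contrasts.

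In the deposited transcript abundances (TPM), which come from spliced transcripts of the same libraries, 49 of the 139 members met both ratio conditions (35.3%), against 0.279% of the other genes. The rule used these libraries, so this is a description. The mESC ratio was at least 2 in 104 members (74.8%, against 17.6% of the other genes) and the mCtx ratio at most -0.5 in 75 (54.0%, against 24.2%). The mCtx ratio was above 0 in 26 members (18.7%, against 65.0%). The median TPM ratios were 2.48, 0.67 and -0.60 in mESC, mNPC and mCtx, against 0.42, 0.63 and 0.62 in the other genes. Zbtb18 had mESC ratios of 2.02 in CPM and 4.31 in TPM and mCtx ratios of -1.42 and -0.03. Mmgt1 had TPM ratios of 2.48 in mESC and -2.53 in mCtx.

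The members just inside the mESC threshold were Gnaq, a G protein subunit, at 2.002 and Srr, serine racemase, at 2.004, and just outside it were Tgoln1 and Dnajb11, both at 1.998. Just inside the mCtx threshold were Prkcb, a protein kinase C, at -0.504 and Reep3 at -0.505, and just outside it Pxylp1 at -0.481 and Mfsd6 at -0.474. In Prkcb the mESC libraries differed widely, with 79, 27.8 and 15.5 CPM in chromatin and 20.4, 6.17 and 2.5 CPM in cytoplasm, and the library numbered 1 was highest in both. Of all members, 138 had every mESC chromatin library above every mESC cytoplasm library and 136 had every mCtx chromatin library below every mCtx cytoplasm library. The rule used these libraries, so both counts are a description, and the shares in other genes were not counted. In 8 members another gene of the same strand overlaps with at least 10.0% of their counts, among them Prnp with Prnd, Mbtps2 with Yy2 and Hyal1 with Naa80 and Hyal3, and reads there cannot be assigned to 1 gene.

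RefSeq promoter windows (GRCm38.p6), 250 bases before to 50 after a start, were matched by symbol for 97 members with 120 windows. The cAMP element TGACGTCA, which is its own reverse complement, was in 5.0% of them, against 3.4% of windows of the other genes at the level minimum and 1.79% of all windows. TATAAA on either strand was in 10.0%, against 5.98% and 13.6%, and the ETS motif CCGGAAG on either strand in 14.2%, against 20.0% and 8.86%. CCAAT was in 35.8%, against 38% and 37.4%, and TCACGTGA in 0 windows, against 2.16% and 0.974%. The left part TTCAGCACC of the REST element was in 0 windows, against 0.385% and 0.371%, and its right part in 1 window, that of Hacd2 (0.833%), against 0.224% and 0.137%. The NRF1 motif was in 1.67%, against 2.46% and 0.971%, and the ER stress element in 0 windows, against 0.139% and 0.119%. These are matches of letters in this window and not sites.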

How the data were processed

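Polyadenylated RNA of 27 libraries was sequenced as 100 bp pairs from stranded libraries of RNA over 200 nt, per the labels' protocols. The authors deposited read counts per gene and TPM per gene, per the file headers. The chromatin columns hold whole-number counts and were analysed as such. STAR, featureCounts and kallisto 0.43.0 with the build mm10 are named in the submitters' processing notes. Neither their options nor the annotation release were found in the labels or headers. The deposited length equals start to end in all 37332 genes, so intronic reads are counted.

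Symbols, biotypes and coding sequences came from GENCODE M21, matched by identifier for 35533 genes. CPM is the count over the library total. The members, lists and tests were chosen with earlier results of these data known. The groups of function, the hydropathy measure and the motifs were chosen after the members were seen.

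The filter was filterByExpr with the 9 groups, and 18226 genes passed it, all 139 members included. Libraries were scaled by TMM. All 27 libraries were fitted with 1 mean per group in edgeR 4.0.16 (R 4.3.3), and 6 contrasts between mNPC fractions or between nucleoplasm fractions, which the rule did not use, were tested by quasi-likelihood F-tests. Adjustment was by Benjamini-Hochberg across every gene of a contrast, and a call needed an adjusted p under 0.05 and a log2 fold change of at least 1 in size. The SE is the fold change over the square root of F. The fit was tested on simulated data in which a small set of genes was changed in mNPC chromatin and the rest kept 1 mean. In the real fractions many genes differ, so the simulation does not show how the scaling and test perform there. No set test was made. Replicates are biological, per the labels, and p-values measure the spread between them, estimated for each gene over all 27 libraries. The mESC and the mNPC are 1 line each, so p-values do not cover differences between lines.

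Genes named are the 16 members with the largest difference between the ratios, the 6 highest in mCtx cytoplasm, members of a neuronal list, the 5 or 4 largest calls in each direction of 2 contrasts, and those next to a threshold. A few genes that this rule picks are not reported here. Alternatives were RLE size factors, library totals, other filters, a replicate block, no minimum fold, only the groups compared, DESeq2 1.42.0, limma-trend (limma 3.58.1) on log2(TPM + 1), other thresholds of the rule, and each library left out.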

Additional observations from a re-analysis of the deposited data

How the results depend on the processing

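The number of members was 88 with TMM-scaled CPM (58 shared with the 139), 746 with ratio thresholds of 1 and 0, 11 with thresholds of 3 and -1, and 68 in the TPM table (38 shared). It was 115 to 175 with 1 library left out. The median mNPC log2 chromatin-to-cytoplasm ratio of 0.10 was -0.21 with TMM-scaled CPM and 0.67 in TPM. In mNPC chromatin over cytoplasm, library totals gave 26 members higher and 12 lower (33.6% and 16.9% of all genes). No minimum fold gave 38 and 53, and limma-trend on TPM 43 and 6, where that test called 41.0% of all genes higher and 8.5% lower. In mNPC nucleoplasm over cytoplasm, limma-trend called 47 higher (6.74% of all genes). The 6 lower members of that contrast were 10 with library totals (17.8% of all genes), 15 with no minimum fold, 3 with DESeq2 and 2 to 6 with 1 library left out. In mNPC chromatin over nucleoplasm, the 8 higher members were 19 with library totals (36.6% of all genes), 17 with no minimum fold, 24 with limma-trend (45.2% of all genes) and 4 to 9 with 1 library left out. The 85 lower members were 29 with limma-trend (4.66% of all genes). Shares of all genes for no minimum fold, DESeq2 and libraries left out are not given here. In mNPC over mESC nucleoplasm, no minimum fold gave 25 lower. The cause of these differences was not tested. The other counts stayed within 1.5 times.

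Of 163 called values of named members, 56 lost the call under some alternative. The sign changed in 7, all in limma-trend on TPM. These were Eda2r (0.36), Ids (0.11) and Mfap3 (0.08) in mNPC chromatin over nucleoplasm, Gnaq (0.05) and Il31ra (0.30) in mNPC chromatin over cytoplasm, and Lmbrd2 (0.15) and mt-Nd6 (0.32) in mCtx over mNPC nucleoplasm.

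With the replicate number as a block, the 3 mNPC contrasts kept their counts (14 higher and 24 lower in chromatin over cytoplasm), and mCtx over mESC nucleoplasm had 60 higher and 32 lower. Deviations of same-numbered libraries correlated at -0.12 to 0.25 in the contrasts tested, so the numbers were not taken to pair samples there. Between mESC fractions, which were not tested against each other, they correlated at 0.31 to 0.72. Members with few counts, such as Cort in mNPC, limit what their folds can show.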

Other observations

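A few members that the naming rule passed over belong to small pathways and were picked after their values were seen. Pigm, a mannosyltransferase of the GPI anchor, had 41.3, 37.9 and 37 CPM in mCtx cytoplasm and 11, 8.08 and 6.73 CPM in mESC cytoplasm, beside 12.3, 12.9 and 14.4 CPM in mCtx chromatin and 68.4, 62.8 and 59.1 CPM in mESC chromatin. Pigw and Pigf act in the same pathway, and all 3 had cytoplasm above both nuclear fractions in mCtx and below both in mESC, with no overlap. Sc5d, an enzyme of late cholesterol synthesis, had 99.7, 76.3 and 81 CPM in mCtx cytoplasm and 3.93, 3.33 and 3.51 CPM in mESC cytoplasm, and its chromatin was higher in mCtx too, at 45.9, 38.3 and 42.8 CPM, against 16.4, 22.7 and 18.9 CPM in mESC. Prnp, the prion protein, whose reads overlap those of Prnd, had 324, 318 and 309 CPM in mCtx cytoplasm and 2.59, 2.89 and 2.45 CPM in mESC cytoplasm.

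Il6st, the shared receptor subunit through which LIF signals, had 30.0, 28.3 and 33 CPM in mCtx cytoplasm and 28.8, 23.8 and 25.5 CPM in mESC cytoplasm, while chromatin had 21.2, 19 and 17.4 CPM in mCtx and 166, 118 and 125 CPM in mESC. Its nucleoplasm level was the highest of the 3 fractions in both, and in mNPC it had 242, 233 and 223 CPM in nucleoplasm and 45, 33.1 and 43.3 CPM in cytoplasm, with a log2 value of 2.80 (adjusted p = 1.69e-14). Atf6, an ER stress sensor, had 122, 127 and 124 CPM in mNPC nucleoplasm and 44.4, 37.5 and 41.6 CPM in mNPC cytoplasm, with 1.87 (adjusted p = 1.21e-12) on the log2 scale. Each nucleoplasm library of both genes was above each cytoplasm library in mNPC.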
